A study of Mus musculus with 3 samples.

Results

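The cadherin genes *Cdh1*, *Cdh2*, *Cdh3*, *Cdh5*, *Cdh11* and *Cdh13* were described across the cell lineages of developing mouse back skin. The members were taken by name and are 6 of the 19165 genes in the table. Lineages were set with marker genes other than these, and the 6 genes were kept out of the clustering. Back skin of pooled male C57/BL6 mice was taken at embryonic stages E13.5 and E16.5 and on the day of birth (P0). It was dissociated and sequenced cell by cell from the 3′ ends of transcripts captured in droplets. There was 1 library per stage, so no replicate error exists and no p-value can be given. Skin was digested for 5 min with trypsin and EDTA at E13.5 and E16.5 and for 30 min with collagenase IV at P0. Stage and library cannot be told apart in any comparison of stages, and in those with P0 neither can digestion.

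Cadherins are calcium-dependent adhesion molecules that hold like cells together. Their outer repeats bind cadherins of the neighbouring cell, and the cytoplasmic tail of the classical members binds p120 catenin and β-catenin, which link the junction to actin through α-catenin. *Cdh1* encodes E-cadherin and *Cdh3* encodes P-cadherin, the pair used by epidermis and hair follicle. *Cdh2* encodes N-cadherin of nerve, muscle and mesenchyme, *Cdh5* encodes VE-cadherin of endothelial junctions, and *Cdh11* encodes OB-cadherin of mesenchyme. *Cdh13* encodes T-cadherin, an atypical member held in the membrane by a lipid anchor, with no cytoplasmic tail.

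In the GRCm38 assembly, with the GENCODE annotation, 5 of the 6 genes lie on chromosome 8 and *Cdh2* lies on chromosome 18 (16588877 to 16809246, minus strand). *Cdh3* (106510891 to 106557297, plus strand) and *Cdh1* (106603351 to 106670246, plus strand) are neighbours, with 46053 bases between them. *Cdh11* (102632095 to 102785642, minus strand), *Cdh5* (104101625 to 104144511, plus strand) and *Cdh13* (118283733 to 119324921, plus strand) lie farther apart.

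The libraries held 5962, 5208 and 5065 cells and 53334740, 66239195 and 46599806 unique molecular identifiers (UMIs) at E13.5, E16.5 and P0. The median cell held 7066.5, 11021 and 6797 UMIs. Dermal-like cells numbered 2313, 3295 and 2627, epithelial-like cells 380, 952 and 1591, and endothelial-like cells 326, 351 and 213. Lineages were named from marker lists, so all names are likenesses. Epithelial-like, dermal-like and endothelial-like cells held at least 1 UMI of all 8 markers of their list in each library. This sets no lineage apart, since E13.5 dermal-like cells also held all 8 epithelial and all 8 endothelial markers. Melanocyte-like cells lacked 1 of 7 at E13.5, *Tyrp1*, which was at 0 CPM in the other cells of that library too. Of the cell barcodes, 44 occurred in both E13.5 and E16.5, 41 in both E13.5 and P0, and 32 in both E16.5 and P0. A sub-cluster was called mixed where the naming rule counted at least 3 leading markers of 1 other lineage. Mixed sub-clusters held 214 cells at E13.5 and 77 at P0, and 84 cells at E13.5 were left unnamed. Some sub-clusters led in part by another lineage's genes fell under that count and kept their lineage name. Levels are given as CPM, a gene's UMIs in a group of cells scaled to 1000000 UMIs, with exact 95% Poisson intervals, which cover counting error only. A difference is the log2 difference of CPM + 10. It was called past the fold when it was at least 1 in size and its interval left out 0, among genes with at least 50 UMIs over both groups.

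**Figure D1:**
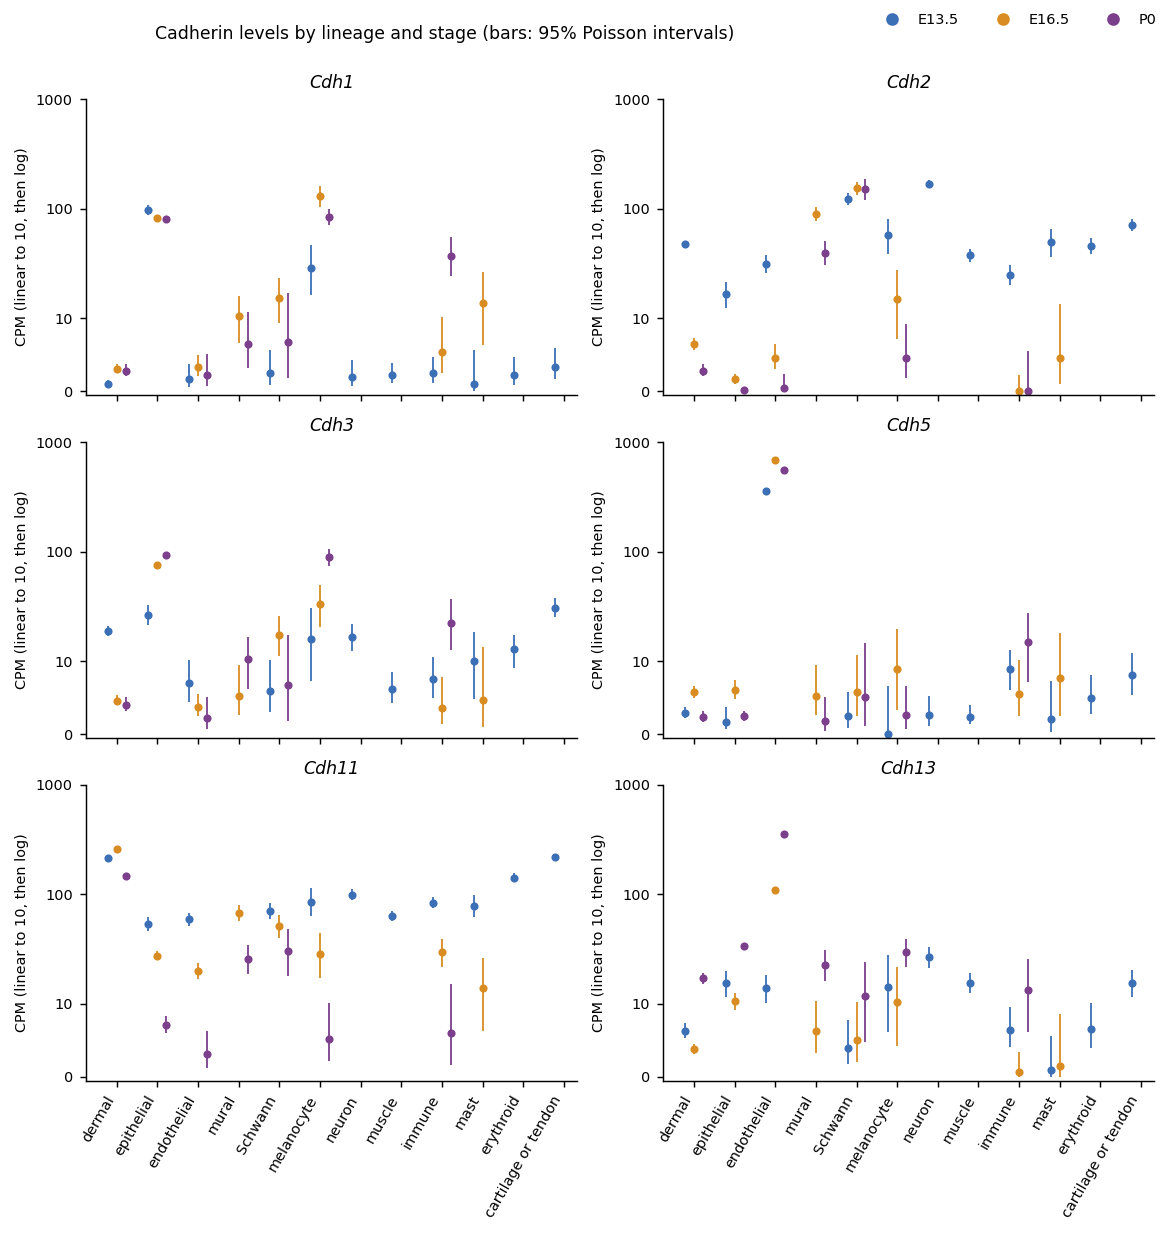
Level of each cadherin gene (CPM, linear to 10 and then on a log axis) in lineages with at least 50 cells, coloured by stage. Points are group levels and bars are exact 95% Poisson intervals. *Cdh5* stood at 357 to 683 CPM in endothelial-like cells, while *Cdh11* was spread over every lineage at E13.5.

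*Cdh1* separated epithelium from dermis at every stage, and *Cdh3* at E16.5 and P0. *Cdh1* stood at 97.1 CPM (87.1 to 108) in epithelial-like cells at E13.5, 82.0 (77.5 to 86.7) at E16.5 and 80.0 (76.2 to 84.0) at P0. In dermal-like cells it stood at 1.02, 3.10 and 2.79 CPM. The 2 lineages were far apart in all 3 libraries, with log2 differences of 3.28 (3.12 to 3.43), 2.81 (2.71 to 2.91) and 2.82 (2.70 to 2.92).

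*Cdh3* began differently. At E13.5 it stood at 26.5 CPM (21.4 to 32.4) in epithelial-like and 18.9 (17.1 to 20.8) in dermal-like cells. The log2 difference, 0.34 (0.10 to 0.57), was not past the fold. Dermal-like cells, 38.8% of the library's cells, held 48.7% of its *Cdh3* UMIs at that stage. Epithelial-like cells, 6.37% of the cells, held 11.1%. Cartilage or tendon-like cells held 30.7 CPM (25.1 to 37.3) at E13.5, within counting error of the epithelial level, with *Cdh3* per epithelial marker UMI at 107 (79.7 to 143) times the epithelial ratio. At E16.5 the levels were 75.4 CPM in epithelial-like and 4.59 in dermal-like cells, and at P0 they were 93.2 and 4.01. The log2 difference was then 2.55 (2.45 to 2.65) and 2.88 (2.76 to 2.99). The separation of the pooled lineages seen at E16.5 and P0 was thus not seen at E13.5. The pooled E13.5 levels were uneven, at 7.61 to 65.5 CPM over 7 epithelial-like sub-clusters and 2.68 to 52.7 over 12 dermal-like ones. Of the 380 epithelial-like cells, 163 were periderm-like and held 25 of the 93 *Cdh3* UMIs.

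*Cdh11* was the dermal member. It stood at 215 CPM (208 to 221), 259 (254 to 264) and 146 (141 to 152) in dermal-like cells and at 54.1, 27.5 and 7.04 in epithelial-like cells. Epithelial-like cells were lower by log2 differences of -1.81 (-1.99 to -1.63), -2.84 (-2.95 to -2.74) and -3.20 (-3.31 to -3.08). *Cdh2* was lower in epithelial-like cells past the fold at E13.5, at -1.12 (-1.37 to -0.87), with 16.52 against 47.6 CPM. This call was lost with the mean CPM of cells, at -0.87, and with mixed sub-clusters kept, at -0.99. Its values at E16.5 and P0 were -0.50 and -0.32, when dermal-like cells themselves held 6.42 and 2.79 CPM. With 1 CPM added in place of 10 they were past the fold, at -1.49 and -1.61.

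*Cdh5* and *Cdh13* were not past the fold between these lineages. *Cdh5* differed by -0.14 (-0.31 to 0.10), 0.02 (-0.11 to 0.16) and 0.01 (-0.11 to 0.13). *Cdh13* was at 0.64 (0.38 to 0.90), 0.59 (0.45 to 0.72) and 0.69 (0.55 to 0.82), and with 1 CPM added it was past the fold at E13.5 and E16.5, at 1.17 and 1.29. In each library 3 of the 6 genes were past the fold, against 8.68%, 11.4% and 12.7% of all genes tested, in order of stage. The genes were listed because they are known lineage cadherins, so the count describes them and no more.

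**Figure D2:**
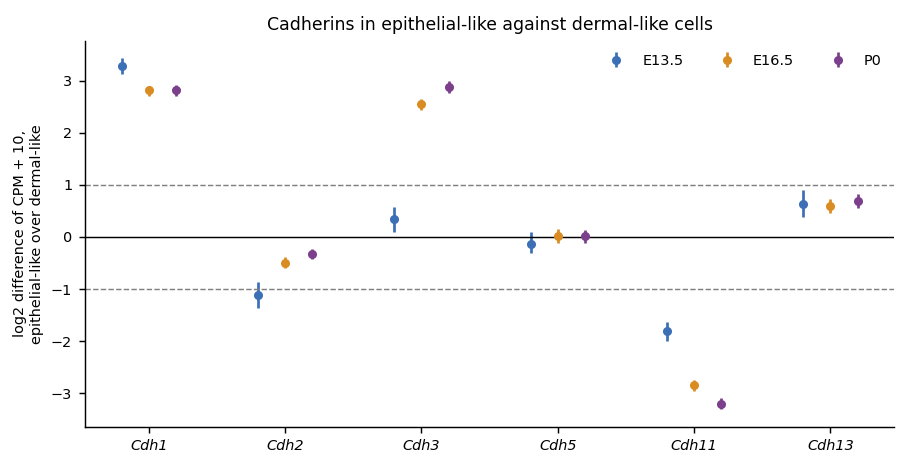
Log2 difference of CPM + 10, epithelial-like over dermal-like cells, for each cadherin and stage. Bars are intervals from counting error and dashed lines mark the fold of 1. *Cdh3* sat at 0.34 at E13.5 and at 2.55 and 2.88 at the later stages.

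The genes that act with cadherins at the junction were taken from a list of 16 partners. Of the 15, 14 and 14 with enough UMIs, 6, 5 and 4 were past the fold toward epithelium at E13.5, E16.5 and P0, and 0 toward dermis. Of all genes tested, 4.31%, 4.32% and 5.26% were past it in that direction. The median log2 difference of the list was 0.41, 0.50 and 0.55, beside -0.03, -0.05 and 0.05 over all genes tested. *Jup*, plakoglobin of junctions and desmosomes, differed by 3.0, 2.71 and 3.06. *Nectin4*, an adhesion molecule of adherens junctions, differed by 4.40, 1.64 and 1.51. *Nectin1* and *Nectin3*, of the same family, differed by 1.84 and 1.51 at E13.5. *Ajuba*, a LIM protein that binds α-catenin, differed by 0.71 at E13.5, under the fold, and by 2.38 and 2.62 later. *Ctnna1*, α-catenin itself, differed by 0.12, 0.30 and 0.21 and was not past the fold.

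Most of the listed repressors of E-cadherin transcription with enough UMIs were lower past the fold in the *Cdh1*-rich lineage. Of 6 with enough UMIs, 4, 5 and 5 were past the fold toward dermis and 0 toward epithelium, against 4.38%, 7.08% and 7.41% of all genes toward dermis. *Zeb2* differed by -1.72, -3.17 and -3.70 and *Twist1* by -2.18, -3.28 and -3.43. *Zeb1* differed by -1.30, -1.57 and -1.24, past the fold in each library, and *Snai1* by -0.82, under the fold, then -2.53 and -2.49. *Twist2*, also one of the markers that set the dermal lineage, differed by -2.17, -3.26 and -3.85. Its direction was fixed by the naming, so the counts set against all genes include this fixed call in each library. *Snai2* (Slug) went apart from the list, at -0.997, 0.11 and 0.79, and was not past the fold at any stage. Of 15 other cadherins in the table, 6, 3 and 1 had enough UMIs and 0 were past the fold. Among them *Cdh4*, R-cadherin, was at -0.76, 0.06 and -0.76.

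Within the P0 epithelium the sub-lineages with more *Cdh1* held less *Cdh3*, apart from the follicle and root sheath. At P0 *Cdh1* stood at 138 CPM (120 to 157) in suprabasal-like cells, 108 (95.2 to 121) in basal-like cells, 49.2 (44.4 to 54.4) in follicle-like cells (placode, germ or matrix) and 31.7 (22.7 to 43.2) in inner root sheath or shaft-like cells. *Cdh3* stood at 22.7 CPM (16.1 to 31.2), 83.0 (72.2 to 95.1), 121 (113 to 129) and 114 (96.3 to 134) in the same order. The group highest for *Cdh1* was lowest for *Cdh3*. From follicle-like to root sheath or shaft-like cells *Cdh1* was lower, while the *Cdh3* intervals overlapped.

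The share of *Cdh1* among the UMIs of both genes was compared between groups. It was 85.8% (exact binomial 95% interval 81.1% to 89.8%) in suprabasal-like, 56.4% (51.9% to 60.9%) in basal-like, 28.9% (26.5% to 31.5%) in follicle-like and 21.7% (16.0% to 28.4%) in root sheath or shaft-like cells. Periderm-like cells, the outer sheet of the embryonic epidermis, held 89.3% at E13.5 and 88.1% at E16.5. Basal-like cells held 48.3% and follicle-like cells 39.8% at E16.5. The split in follicle-like cells was thus further toward *Cdh3* at P0 than at E16.5, with intervals of 26.5% to 31.5% and 35.7% to 44.0% that do not overlap.

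Against basal-like cells, *Cdh3* was lower in suprabasal-like cells at P0 by -1.51 (-1.88 to -1.13) and *Cdh1* differed by 0.33 (0.09 to 0.57). In this comparison 2 of 3 members with enough UMIs were past the fold, against 11.6% of genes. With cells named one by one the *Cdh3* difference was -0.59, and the call was lost. The comparisons of suprabasal-like, periderm-like and root sheath or shaft-like cells, and those of 1 sub-lineage between stages, were added after the sub-lineages had been seen. The 88 periderm-like cells at E16.5 were led by periderm genes such as *Krt4* and *Krt6a* but also by *Krt1* and *Krt10* of suprabasal epidermis, and no suprabasal-like class was found at that stage. They held 203 CPM (180 to 227) of *Cdh1* and 27.3 (19.5 to 37.2) of *Cdh3*. Their differences from basal-like cells were 1.37 (1.18 to 1.55) and -1.23 (-1.58 to -0.88), and 2 of 5 members were past the fold against 6.69% of genes. Follicle-like cells at P0 differed from basal-like cells by -0.99 (-1.19 to -0.79) in *Cdh1* and 0.49 (0.30 to 0.69) in *Cdh3*, neither past the fold. At E16.5 the same differences were -0.08 and 0.36, and 0 members were past the fold against 1.97% of genes.

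**Figure D3:**
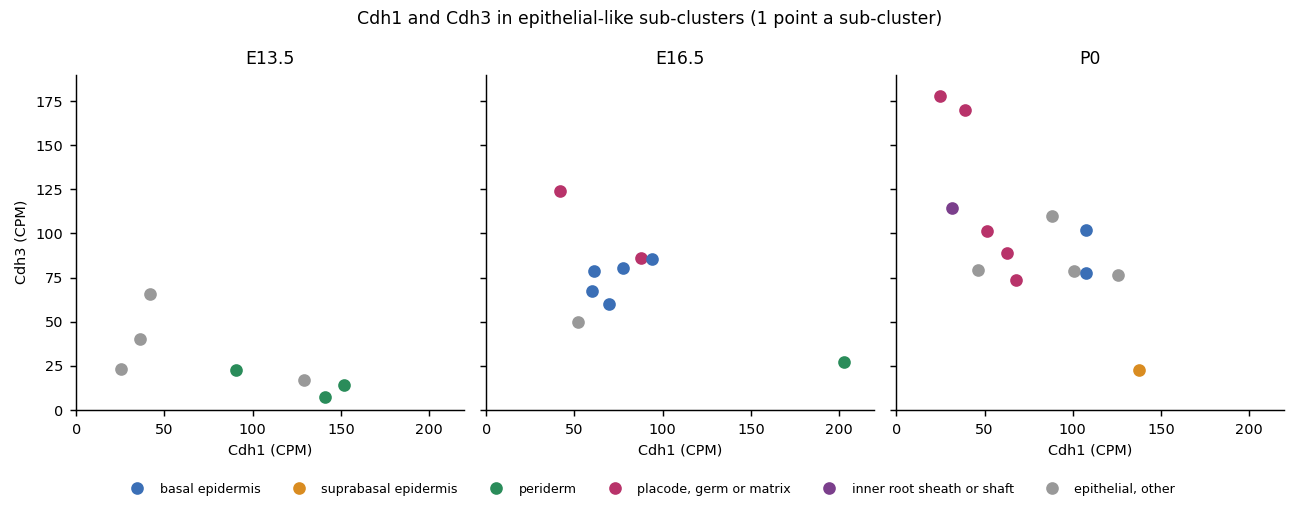
*Cdh1* against *Cdh3* (both in CPM) in the epithelial-like sub-clusters of each library, coloured by the sub-lineage named from markers. At P0 the 13 sub-clusters ran from high *Cdh3* in follicle-like cells to high *Cdh1* in suprabasal-like cells.

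The correlation of log2(CPM + 10) of the pair was taken over the sub-clusters of one library, whose depths per cell differed. It was -0.72 at E13.5 (7 sub-clusters), -0.68 at E16.5 (9) and -0.71 at P0 (13). Without any single sub-cluster it lay between -0.92 and -0.66 at E13.5 and between -0.76 and -0.62 at P0. At E16.5 it fell to -0.07 without the periderm-like sub-cluster, so the value there rests on that group. The sub-clusters include some led in part by dermal genes, whose part in these correlations was not tested. Across all lineages, over the 26 groups of lineage and stage, the Pearson correlation of the pair was 0.78. In single cells thinned to 3500 UMIs, both genes were seen in 5.46% of epithelial-like cells at E16.5, *Cdh1* alone in 19.3% and *Cdh3* alone in 16.6%. At P0 these shares were 5.03%, 17.9% and 20.8%.

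Without thinning, *Cdh1* was seen in 41.3%, 62.3% and 48.7% of epithelial-like cells at E13.5, E16.5 and P0. Thinned, the shares were 22.4%, 24.8% and 22.9%, so most of the gap between E16.5 and the other libraries was not seen at equal depth. Thinned dermal-like cells, which should lack the gene, showed *Cdh1* in 0.303%, 0.971% and 1.03%. Their median depths were 8494, 10402 and 6020 UMIs, beside 6402.5, 13624 and 9601 in epithelial-like cells. The thinned share of epithelial-like cells with *Cdh3* was 7.63%, 22.1% and 25.8% (17.6%, 61.4% and 55.0% unthinned).

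From E13.5 to E16.5 *Cdh3* was higher in the epithelium by 1.23 (0.997 to 1.46). *Cdh2* was lower by -1.19 (-1.44 to -0.93), so 2 members were past the fold against 6.54% of genes. The *Cdh2* call was lost with at least 2500 genes per cell, at -0.90. *Cdh1* differed by -0.22 (-0.38 to -0.06). *Cdh11* differed by -0.77 (-0.98 to -0.57), and under 6 alternatives in clustering, naming, doublets or summing it was past the fold, at -1.22 to -1.04. By the naming rules E13.5 had 163 periderm-like and 0 basal-like cells and E16.5 had 88 and 575, but these numbers are not a comparison of make-up. The 575 cells were named against all clusters of their library, and an E13.5 sub-cluster of 59 cells with 5 of 7 basal markers up was refused the name over 1 placode gene, *Dkk4*. Within periderm-like cells alone the *Cdh3* difference was 0.53 (0.03 to 1.02), under the fold, and 0 members were past the fold against 13.6% of genes. With the mean CPM of cells *Cdh1*, at 1.05, and *Cdh11*, at -1.34, were past it, and with 1 CPM added *Cdh11* was, at -1.10.

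*Cdh13* was higher in basal-like cells at birth than at E16.5. It stood at 11.1 CPM (9.04 to 13.53) at E16.5 and at 48.6 (40.4 to 58.0) at P0, a difference of 1.47 (1.21 to 1.74) that was 0.94, under the fold, with clusters named against the median cluster. In follicle-like cells it stood at 13.1 CPM at both stages, a difference of 0.00 (-0.31 to 0.30). *Cdh13* and *Cdh11* were the 2 members past the fold in basal-like cells, against 5.47% of genes, and *Cdh11* was the 1 in follicle-like cells, against 5.55%. The *Cdh11* calls held under 8 and 9 of 12 alternatives. At P0 follicle-like cells were lower in *Cdh13* than basal-like cells by -1.34 (-1.61 to -1.07), the 1 member past the fold against 4.28% of genes, and suprabasal-like cells by -1.13 (-1.53 to -0.72). These went to -0.79 and -0.59 with median naming, and the second to -0.51 cell by cell, all under the fold. Root sheath or shaft-like cells held 1.59 CPM, from 2 UMIs, and 0 members differed from follicle-like cells past the fold against 3.91% of genes. *Cdh13* stood at -0.998 there and was past the fold under 4 alternatives, at -2.45 to -1.004. A pair of sub-clusters left without a sub-lineage name, of 212 and 135 cells, were the highest in the P0 epithelium, at 78.1 (67.0 to 90.6) and 74.3 CPM (64.9 to 84.6). The first had 6 of 7 basal markers up but was led also by the haemoglobin genes *Hbb-bt*, *Hba-a2*, *Hba-a1* and *Hbb-bs*. It was refused the basal name over these, so the P0 basal-like values leave it out. It held 101 CPM of *Cdh1* and 78.6 of *Cdh3*. Over the whole epithelium *Cdh13* differed by 1.08 (0.93 to 1.22) and *Cdh11* by -1.14 (-1.28 to -0.99) between E16.5 and P0, 2 members against 3.77% of genes. Both calls were lost when sub-clusters led by another lineage's genes were set aside, a choice made after seeing the data, at 0.91 and -0.94. One such sub-cluster of 73 cells at E16.5 held dermal markers at 14706 CPM in sum and *Cdh11* at 126 CPM (109 to 145), and another of 117 cells at P0 was led by *Col1a1*, *Col1a2* and *Col3a1*.

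In endothelium *Cdh5* and *Cdh13* took different courses. *Cdh5* stood at 357 CPM (337 to 378) in endothelial-like cells at E13.5, 683 (664 to 703) at E16.5 and 556 (526 to 588) at P0. *Cdh13* stood at 13.9 CPM (10.2 to 18.4), 108 (101 to 117) and 354 (330 to 379). From E13.5 to E16.5 *Cdh13* was higher by 2.31 (2.04 to 2.57) and *Cdh5* by 0.92 (0.83 to 1.01), under the fold. Under 4 alternatives *Cdh5* was past it, at 1.08 to 1.30. From E16.5 to P0 *Cdh13* was higher by 1.62 (1.48 to 1.76) and *Cdh5* differed by -0.29 (-0.38 to -0.20). In these 2 comparisons 3 and 2 members were past the fold, against 4.57% and 6.66% of genes. The others were *Cdh2*, at -1.52 (-1.78 to -1.24) in the first, and *Cdh11*, at -1.20 in both. In the first step the *Cdh11* call was lost under 3 alternatives, at -0.93, -0.67 and -0.51. The *Cdh11* difference from E16.5 to P0 turned its direction, to 0.60, with clustering at resolution 0.5 and, to 0.63, with clusters named against the median cluster. This call held under 6 of 12 alternatives, and where it was lost without a turn the difference was -0.97 to -0.85.

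The mix of endothelial types differed between libraries, so blood endothelial-like cells were also compared alone. They were not named alike at each stage. Those at E16.5, and most sub-clusters at P0, were named against the clusters of the whole library. The 79 at E13.5 leave out sub-clusters of 32, 25 and 19 cells nearest the blood list, refused over leading genes of other lineages. The part of this naming in the differences was not tested. In blood endothelial-like cells *Cdh5* stood at 730 CPM (681 to 782), 750 (726 to 775) and 553 (522 to 586). Its difference from E13.5 to E16.5 was 0.04 (-0.07 to 0.15). *Cdh13* stood at 33.5 CPM (23.6 to 46.1), 118 (108 to 128) and 362 (337 to 389), with differences of 1.56 (1.17 to 1.94) and 1.54 (1.39 to 1.69). The intervals of *Cdh13* at the 3 stages do not overlap. In each step 2 members were past the fold, against 2.68% and 6.65% of genes. The others were *Cdh2*, at -1.44, and *Cdh11*, at -1.31, which held under 7 of 11 and 6 of 12 alternatives. At resolution 0.5 the *Cdh11* difference was 1.23, past the fold in the other direction. All 4 P0 blood endothelial-like sub-clusters, at 233 to 417 CPM, were above the E16.5 ones, at 71.3 to 137 CPM.

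**Figure D4:**
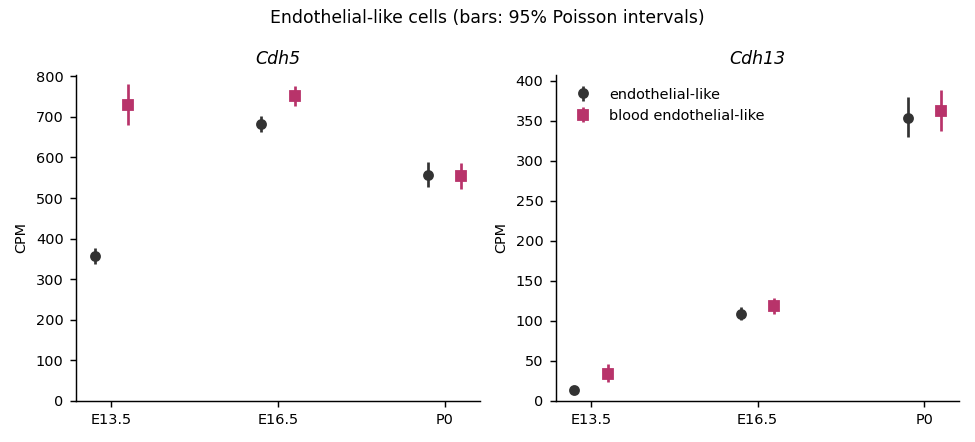
*Cdh5* and *Cdh13* (CPM) in all endothelial-like cells (circles) and in blood endothelial-like cells (squares) by stage, with exact 95% Poisson intervals. *Cdh13* in blood endothelial-like cells went from 33.5 to 118 to 362 CPM, while *Cdh5* was at 730, 750 and 553.

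Lymphatic endothelial-like cells at E13.5 held 221 CPM (200 to 245) of *Cdh5*, lower than blood endothelial-like cells by -1.68 (-1.85 to -1.51), the 1 member past the fold against 5.38% of genes. They held 3 UMIs of *Cdh13*, or 1.73 CPM (0.356 to 5.05). Of these lymphatic-like cells, 30 formed a sub-cluster led also by the immune genes *C1qa*, *C1qb*, *C1qc* and *Lyz2*. Their part in the differences was not tested. At E16.5 43 lymphatic-like cells, too few for a comparison, held 451 CPM (409 to 496) of *Cdh5*. In cells thinned to 3500 UMIs, *Cdh5* was seen in 48.8%, 87.2% and 87.3% of endothelial-like cells (67.8%, 99.1% and 97.2% unthinned), and in 0.789%, 2.21% and 1.19% of epithelial-like cells (1.58%, 7.98% and 2.83%). Median depths of endothelial-like cells were 7368.5, 16540 and 9314 UMIs. For *Cdh13* the thinned share of endothelial-like cells was 4.60%, 33.9% and 67.1%, and both genes were seen in 3.07%, 29.3% and 60.6%.

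*Cdh2* stayed high in Schwann-like cells and was lower in dermis after E13.5. It stood at 169 CPM (155 to 185) in neuron-like cells at E13.5, at 232 (193 to 278) in the 84 unnamed cells and at 124 (109 to 140), 154 (134 to 177) and 151 (121 to 186) in Schwann-like cells at the 3 stages. The Schwann-like level differed by 0.29 (0.04 to 0.54) and -0.03 (-0.38 to 0.31) between stages, and 0 members were past the fold there, against 5.17% and 9.05% of genes. In dermal-like cells *Cdh2* stood at 47.6 CPM (44.8 to 50.6), 6.42 (5.63 to 7.29) and 2.79 (2.06 to 3.70). In the first step it was lower by -1.81 (-1.91 to -1.71), the 1 member past the fold in dermis against 3.7% of genes. From E16.5 to P0, 0 members were past it against 4.42%.

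Schwann-like cells, 99 to 202 a library, made up 3.39%, 2.09% and 1.95% of the libraries in order of stage. They held 8.71%, 29.8% and 40.2% of all *Cdh2* UMIs. Mural-like cells, the pericytes and smooth muscle of vessels, were next to Schwann-like cells in *Cdh2* at the later stages, at 90.2 CPM (77.7 to 104) at E16.5 and 39.7 (30.8 to 50.3) at P0. The step was -1.01 (-1.35 to -0.67), with *Cdh11* at -1.13 and *Cdh13* at 1.01, 3 members past the fold against 7.82% of genes. *Cdh2* held under 9 and *Cdh13* under 8 of 12 alternatives. At E13.5 *Cdh2* stood at 71.7 CPM in cartilage or tendon-like, 57.0 in melanocyte-like, 49.3 in mast-like, 47.6 in dermal-like and 45.8 in erythroid-like cells. No neighbours in that order differed beyond counting error, and erythroid cells should lack the gene. Thinned, *Cdh2* was seen in 27.7%, 38.5% and 41.4% of Schwann-like cells (55.4%, 78.9% and 58.6% unthinned) and in 15.2%, 2.06% and 1.07% of dermal-like cells (29.7%, 5.74% and 1.67%).

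Within the E16.5 dermis *Cdh2* was higher in the condensate, the mesenchymal cell cluster under each forming follicle. Condensate-like cells held 26.2 CPM (21.6 to 31.5) and other dermal-like cells 3.79 (3.15 to 4.52), a difference of 1.39 (1.18 to 1.60). It was the 1 member past the fold, against 4.26% of genes. One sub-cluster of 207 cells led by *Sox18*, *Bmp3* and *Sox2* held 48.9 CPM (39.5 to 59.9), the highest of 18 dermal-like sub-clusters, whose median was 4.08. The other condensate-like sub-clusters were uneven, at 19.9 CPM (12.0 to 31.1) in 99 cells and 1.33 (0.162 to 4.82) in 162 cells. *Cdh3* was at 10.3 CPM in condensate-like and 3.82 in other dermal-like cells, a difference of 0.56 (0.33 to 0.80). *Cdh22* and *Ctnnb1* (β-catenin), from the fixed lists, were past the fold in the same direction, at 1.004 and 1.05. At P0 the *Cdh2* difference was 0.44 on 48 UMIs, under the minimum, and 0 members were past the fold against 5.41% of genes. The E16.5 difference was -0.18 when cells were named one by one and 0.88 with clustering at resolution 0.5, so the call was lost under both.

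From E16.5 to P0 condensate or papilla-like cells were lower in *Cdh2* by -1.12 (-1.46 to -0.74) and higher in *Cdh13* by 1.20 (0.83 to 1.53), 2 members against 7.14% of genes. Each held under 7 of 9 alternatives, and with 1000 variable genes 0 members were called. *Cdh2* was at -0.90 at resolution 2 and -0.81 with 1000 variable genes. *Cdh13* stayed at 1.05 with 1000 variable genes and 1.24 with at least 2500 genes per cell, on under 50 UMIs. *Cdh13* over all dermal-like cells stood at 3.78 CPM at E16.5 and 17.1 at P0, at 0.97 (0.85 to 1.10) just under the fold. The level was uneven, since one P0 sub-cluster of 333 cells held 66.9 CPM (55.3 to 80.3) and the median of 14 sub-clusters was 14.2. *Cdh3* in dermal-like cells differed from E13.5 to E16.5 by -0.99 (-1.10 to -0.87), also just under the fold.

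At E13.5 and P0 *Cdh11* counts outside the dermis stood near the level of dermal marker counts there. Dermal-like cells at E13.5 held 24.2 *Cdh11* UMIs per 1000 UMIs of the 8 dermal markers, and the 10 other lineages held 0.80 to 1.06 times that ratio, with 9 intervals that hold 1. At P0 the ratio was 3.43 and the 6 other lineages stood at 0.62 to 1.11 times it, with 5 intervals that hold 1. At E16.5 it was 9.03 and 3 of 7 lineages had intervals that hold 1. Mural-like cells were above, at 1.37 (1.15 to 1.62), and mast-like cells were lowest, at 0.445 (0.204 to 0.846). Epithelial-like cells at E13.5 held 2228 CPM of the dermal markers in sum, with 0 of the 8 at 0, beside 8880 CPM in dermal-like cells. Endothelial-like cells at E13.5 held the dermal markers at 2487 CPM and their own 8 markers at 2311. Per dermal marker UMI, *Cdh2* stood in the 10 other lineages at E13.5 from 1.31 times the dermal ratio in immune-like to 7.22 times in neuron-like cells. It was 1.34 (1.11 to 1.60) in erythroid-like, 1.38 (1.04 to 1.80) in epithelial-like and 2.36 (1.92 to 2.88) in endothelial-like cells. The part of free RNA or mixed cells in these *Cdh11* and *Cdh2* values was not tested. The same ratio for *Cdh3* against epithelial markers was 69.6 (55.4 to 88.2) times the epithelial one in E13.5 dermal-like cells, and 1.85 and 1.41 times at the later stages. All 8 epithelial markers summed to 59.9 CPM in those E13.5 dermal-like cells.

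**Figure D5:**
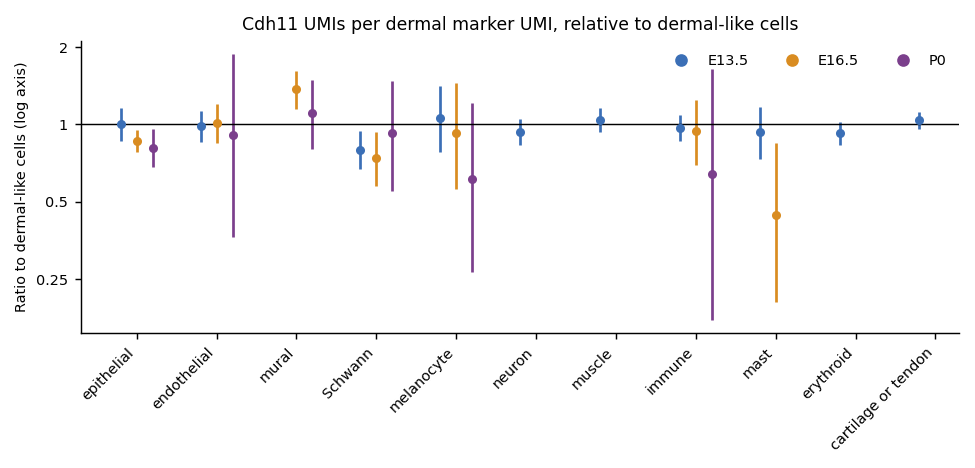
*Cdh11* UMIs per dermal marker UMI in each other lineage, relative to dermal-like cells of the same library (log axis), with 95% intervals. Most points lie near 1, and mural-like cells at E16.5 lie at 1.37.

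In immune-like and mast-like cells *Cdh11* was lower at E16.5 than at E13.5, as was *Cdh11* per dermal marker UMI in the dermis itself. From E13.5 to E16.5 immune-like cells differed by -1.25 in *Cdh11* and -1.81 in *Cdh2*, 2 members against 9.72% of genes. *Cdh2* had 0 UMIs there at E16.5, which against a floor of 3 UMIs is at least 13.9-fold lower than the 25.1 CPM at E13.5. Both calls were lost cell by cell and with at least 2500 genes. *Cdh11* was then at -0.89 and -0.63, while *Cdh2* stayed at -1.39 and -1.50 but had under 50 UMIs. Immune-like *Cdh11* per dermal marker UMI was 0.973 (0.863 to 1.09) and 0.941 (0.696 to 1.25) times the ratio in dermal-like cells of the same library. Mast-like cells differed by -1.89 in *Cdh11* and -2.02 in *Cdh2*, 2 members against 12.1% of genes. *Cdh11* turned to 0.11 when cells were named one by one. *Cdh2* stayed at -2.66 with 1000 variable genes and -1.65 cell by cell, but had under 50 UMIs, so its call was lost under both. The E16.5 mast-like cluster was led also by *Cd74*, *H2-Aa*, *H2-Ab1* and *H2-Eb1*, genes of antigen-presenting cells, none of which was among the 10 leading genes at E13.5. Their part in the difference was not tested. Dermal markers summed to 3572 and 3477 CPM in immune-like and 3487 and 3443 CPM in mast-like cells at the 2 stages, beside 8880 and 28677 CPM in dermal-like cells. From E16.5 to P0 *Cdh11* was the 1 member past the fold in immune-like cells, at -1.31 against 9.16% of genes, a call lost with the mean CPM of cells, at -0.82, and without doublets, at -1.08 on under 50 UMIs. Dermal-like cells differed by 0.26 (0.21 to 0.31) and -0.78 (-0.84 to -0.72) in these steps, and neither was past the fold.

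In melanocyte-like cells *Cdh1* was higher at E16.5 than at E13.5, and *Cdh3* higher at P0 than at E16.5. *Cdh1* stood at 28.5 CPM (16.3 to 46.3), 130 (104 to 160) and 84.2 (70.4 to 99.9), and *Cdh3* at 16.0 (7.33 to 30.4), 32.9 (20.6 to 49.8) and 88.7 (74.5 to 105). *Cdh1* was higher from E13.5 to E16.5 by 1.86 (1.24 to 2.48), and *Cdh11* lower by -1.31, 2 members against 6.95% of genes. The *Cdh11* call was lost at resolution 0.5, at -0.22, and cell by cell, at -0.58, and *Cdh11* per dermal marker UMI was 1.06 (0.781 to 1.41) and 0.929 (0.559 to 1.45) times the dermal ratio. *Cdh3* was higher from E16.5 to P0 by 1.20 (0.67 to 1.74), the 1 member against 8.42% of genes, while *Cdh1* differed by -0.57 (-0.94 to -0.20). The *Cdh1* share of the pair was 79.8% (71.1% to 86.9%) at E16.5 and 48.7% (42.6% to 54.8%) at P0, intervals that do not overlap.

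Epithelial markers in these cells summed to 264, 1445 and 5553 CPM. *Cdh1* per epithelial marker UMI was 6.50 (3.68 to 10.7), 13.9 (11.1 to 17.3) and 3.08 (2.56 to 3.69) times the epithelial ratio. *Cdh3* per epithelial marker UMI was 3.83 (2.39 to 5.83) times it at E16.5 and 2.79 (2.33 to 3.32) at P0. At E13.5 this *Cdh3* ratio was above 1 in all 10 other lineages, from 7.58 to 107, so it sets no lineage apart there. Melanocyte-like cells were not the only ones above 1 for *Cdh1*. Cartilage or tendon-like cells at E13.5 stood at 3.14 (1.55 to 5.68), mast-like cells at E16.5 at 5.60 (2.55 to 10.7) and immune-like cells at P0 at 2.79 (1.80 to 4.14). The latter pair of clusters were both led in part by *Cd74*, *H2-Aa*, *H2-Ab1* and *H2-Eb1*, and which of their cells held the *Cdh1* UMIs was not tested. For *Cdh3* dermal-like cells were also above 1 at E16.5 and P0, and mural-like cells at P0, at 1.76 (1.04 to 2.79). The melanocyte-like groups held 77, 54 and 105 cells. Immune-like cells at P0 held 37.3 CPM (24.2 to 55.1) of *Cdh1* from 25 UMIs, with epithelial markers at 2717 CPM in sum.

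With the 26 groups of at least 50 cells ordered by level, most neighbours did not differ beyond counting error. Only neighbours were compared, so groups farther apart in the order can differ. Of 25 neighbouring pairs, 23 did not differ for *Cdh1*, 20 for *Cdh2*, 24 for *Cdh3*, 22 for *Cdh5*, 21 for *Cdh11* and 23 for *Cdh13*. Genes of like pattern were searched among 11677 genes over the 26 groups, which share 3 libraries. *Cdh5* followed the endothelial markers *Tie1* and *Kdr*, at Pearson correlations of 0.99 and 0.99, and *Bcl6b* at 0.99. *Tie1* and *Kdr* are among the markers that set the endothelial-like groups. Their high values there were in part fixed by the naming. *Cdh11* was nearest *Prrx2* (0.97) and *Cdo1* (0.97). *Cdh1* was nearest *2310030G06Rik* (0.91), with the desmosomal genes *Pkp1*, *Dsp* and *Pkp3* at 0.87, 0.87 and 0.86. *Cdh2* was nearest *Ntm* (0.92), *Cdh3* nearest *Efcab1* (0.92) and *Cdh13* nearest *Btg3* (0.88).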

How the data were processed

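Back skin cells of E13.5, E16.5 and P0 mice were profiled by 3′ droplet sequencing, 1 library per stage. Per the labels, the authors ran Cell Ranger 2.2.0 on the mm10 genome. The authors deposited natural log values, ln(1 + UMIs per 10000) per gene and cell, in 1 table of 19165 genes and 16235 cells, beside 15086 cells in the series' own design text. UMI counts were recovered from these deposited values, and all 48197283 values above 0 came out whole within 0.001. All cells had at least 1750 genes.

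Cells were clustered within each library with Python 3.11.15, scanpy 1.11.5 and leidenalg 0.10.2 on 2000 variable genes, 30 principal components and 15 neighbours at resolution 1. The 45 cadherin, partner and repressor genes were left out. Clusters and sub-clusters took the name of 1 of 21 marker lists if at least 3 markers stood 1 log2 unit or more above the 25th percentile of clusters. For sub-clusters this reference was taken over the sub-clusters of the same lineage. Epithelial-like and endothelial-like sub-clusters that no list named were called basal epidermis-like or blood endothelial-like if 60% of that list was up over the clusters of the whole library instead. All basal-like cells at E16.5 and all blood endothelial-like cells at E16.5 were named in this second way, as were 3 of 4 blood endothelial-like sub-clusters at P0, each with its whole list up. A sub-cluster kept its name if markers of that list outnumbered those of every other list among its 10 top genes, or if none led and 60% of the list was up. A sub-cluster was called mixed if the naming rule counted at least 3 markers of 1 other lineage as leading it. That count could fall below the number of such markers among its 10 top genes. It was 1 for sub-clusters of 73 cells at E16.5 and 117 at P0. Both had *Col1a1* and *Col3a1* among their top genes and stayed epithelial-like. This naming rule was chosen after the clusters were seen. Doublets (0, 84 and 106 called at E13.5, E16.5 and P0) were kept. Why 0 were called at E13.5 was not tested, so doublets there cannot be taken as absent. Leaving doublets out removed no cells of that library. The members and lists were chosen with earlier results of these data known, and 9 of 31 comparisons were added after sub-lineages were seen.

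UMIs were summed per group into CPM with exact 95% Poisson intervals. Shares of cells have exact binomial intervals and were also computed with each cell thinned to 3500 UMIs. Intervals cover counting error only. With 1 library per group no test was run. The named genes are the 6 members, in each comparison at most 4 genes of each other list by size of difference, and among the 5 genes nearest each member by Pearson correlation, of those with at least 500 UMIs. *Ctnna1* and *Snai2* were added after their values were seen. Sub-clusters under 25 cells were left out of ranges and correlations. Older symbols of nectins and afadin were matched through RefSeq synonyms. The fold rule was checked on counts simulated with counting error only and with changes larger than the fold. That check does not cover variation between cells or libraries, or changes near the fold. Alternatives varied the clustering, naming, cell filter, doublets, summing and pseudocount.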

Additional observations from a re-analysis of the deposited data

Results flagged for a closer look

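From E13.5 to E16.5 some members were past the fold in one lineage while another lineage stood on the other side of 0 with an interval that left out 0. Values are log2 differences of CPM + 10, each stage is 1 library, and in every case the difference between lineages was not tested.

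*Cdh2* was at -1.81 in dermal-like, -1.19 in epithelial-like, -1.52 in endothelial-like, -1.81 in immune-like and -2.02 in mast-like cells, against 0.29 in Schwann-like cells. These lineages also held dermal markers at E13.5, at 2228 CPM in epithelial-like, 2487 in endothelial-like, 3572 in immune-like and 3487 in mast-like cells, beside 8880 in dermal-like cells. Their *Cdh2* per dermal marker UMI was 1.38, 2.36, 1.31 and 2.64 times the dermal ratio in that order, with intervals above 1. At E16.5 it was 2.08, 9.13, 0 (0 to 2.88) and 5.99 (1.23 to 17.7) times it. The *Cdh2* calls held under 12 of 12 alternatives in dermal-like and endothelial-like cells and 11 of 12 in epithelial-like cells. They held under 10 of 12 in immune-like and 9 of 11 in mast-like cells. *Cdh11* was at -1.20 in endothelial-like, -1.31 in melanocyte-like, -1.25 in immune-like and -1.89 in mast-like cells, against 0.26 in dermal-like cells. Per dermal marker UMI, *Cdh11* stood at 0.985 and 1.01 times the dermal ratio in endothelial-like, 1.06 and 0.929 in melanocyte-like and 0.973 and 0.941 in immune-like cells, the earlier stage first, with intervals that hold 1. In mast-like cells, whose E16.5 cluster was led also by MHC class II genes, it stood at 0.932 and 0.445. The *Cdh11* calls held under 9 of 12 alternatives in endothelial-like, 9 of 11 in melanocyte-like, 10 of 12 in immune-like and 10 of 11 in mast-like cells. The part of dermal RNA in these differences was not tested. *Cdh13* was at 2.31 in endothelial-like cells, against -0.24 in dermal-like and -0.30 in epithelial-like cells. *Cdh3* was at 1.23 in epithelial-like cells against -0.99 in dermal-like cells. *Cdh1* was at 1.86 in melanocyte-like cells against -0.22 in epithelial-like cells.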

How the results depend on the processing

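Over 31 comparisons the members gave 46 differences past the fold, of which 21 were past it under every alternative that could be made. Of 2142 recomputed differences, 6 changed direction. *Cdh11* in endothelial-like cells, P0 over E16.5, went to 0.60 at resolution 0.5 and 0.63 with clusters named against the median cluster, and in blood endothelial-like cells to 1.23 and 0.68. With cells named one by one, *Cdh11* in mast-like cells went to 0.11 and *Cdh2* in the E16.5 condensate to -0.18. The cause was not tested.

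For the planned comparisons, counts of members past the fold that moved by over 1.5 times were these. In dermal-like cells from E13.5 to E16.5 the count was 2 with the members among the variable genes, with at least 2500 genes per cell, cell by cell, or with sub-clusters led by another lineage set aside, and 3 with 1 CPM added. In dermal-like cells from E16.5 to P0 it was 1 with the members among the variable genes, with the mean CPM of cells, with such sub-clusters set aside or with mixed sub-clusters kept, and 2 with 1 CPM added. For endothelial-like cells from E16.5 to P0 it was 1 at resolution 0.5 or 2, with the members among the variable genes, with median naming, cell by cell or with mixed sub-clusters kept. For epithelial-like cells it was 1 with at least 2500 genes (E13.5 to E16.5), 1 at resolution 2 or without doublets and 0 with sub-clusters set aside (E16.5 to P0). For melanocyte-like cells it was 1 at resolution 0.5 or cell by cell (E13.5 to E16.5, *Cdh11* at -0.22 and -0.58), and 3 at resolution 0.5 and 2 without doublets or with 1 CPM added (E16.5 to P0). For immune-like cells it was 0 with at least 2500 genes or cell by cell (E13.5 to E16.5), and 0 without doublets or with the mean CPM (E16.5 to P0). For mast-like cells it was 1 with 1000 variable genes and 0 cell by cell, and for mural-like cells 1 cell by cell or with the mean CPM. Follicle-like over basal-like cells at P0 gave 2 with 1000 variable genes, with the members among them, with at least 2500 genes or with 1 CPM added, and 0 with median naming. The E16.5 condensate gave 0 at resolution 0.5 or cell by cell and 2 with 1 CPM added. Epithelial over dermal cells at E16.5 gave 5 with 1 CPM added. Setting sub-clusters aside and keeping mixed ones were chosen after seeing the data. Single calls also changed where counts moved less. For endothelial-like cells from E13.5 to E16.5, *Cdh11* went to -0.93 at resolution 2, -0.67 cell by cell and -0.51 with sub-clusters set aside, and *Cdh5* to 1.08 with 1000 variable genes, 1.11 with median naming or mixed sub-clusters kept and 1.30 with the mean CPM. For epithelial-like cells in that step, *Cdh11* went past the fold, at -1.22 to -1.04, at resolution 0.5, with median naming, cell by cell, without doublets, with the mean CPM or with mixed sub-clusters kept, and *Cdh5* with 1 CPM added, at 1.37.

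Among the comparisons added once the sub-lineages had been seen, suprabasal-like over basal-like cells gave 0 calls cell by cell, with *Cdh3* at -0.59 and *Cdh13* at -0.51. Condensate or papilla-like cells from E16.5 to P0 gave 0 with 1000 variable genes. *Cdh11* in follicle-like cells from E16.5 to P0 was lost at resolution 2, with 1000 variable genes and with the mean CPM, at -0.99, -0.99 and -0.94, and in basal-like cells it lay at -0.99 to -0.71 under 4 alternatives. *Cdh2* in blood endothelial-like cells was lost under 4 alternatives for having under 50 UMIs, at -1.48 to -1.28, and *Cdh11* under 6, the turn to 1.23 included. Periderm-like cells from E13.5 to E16.5 gave 2 calls with the mean CPM and 1 with 1 CPM added, and root sheath or shaft over follicle gave 1 under 4 alternatives.

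Thinned to 3500 UMIs, the shares of cells at E13.5, E16.5 and P0 were 22.4%, 24.8% and 22.9% for *Cdh1* and 7.63%, 22.1% and 25.8% for *Cdh3* in epithelial-like cells, 27.7%, 38.5% and 41.4% for *Cdh2* in Schwann-like cells, 48.8%, 87.2% and 87.3% for *Cdh5* and 4.60%, 33.9% and 67.1% for *Cdh13* in endothelial-like cells, and 48.9%, 59.7% and 39.9% for *Cdh11* in dermal-like cells.

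With under 50 cells in a group, comparisons of the P0 papilla could not be made at resolution 0.5, with median naming or cell by cell, nor those of periderm and root sheath cell by cell. With at least 2500 genes per cell, 6 comparisons of small groups could not be made: melanocyte and mast from E13.5 to E16.5, Schwann and immune from E16.5 to P0, and the lymphatic and blood endothelial ones of E13.5. No paired analysis was possible because each stage has 1 library. *Cdh2* in epithelial-like and endothelial-like cells at P0 rests on 5 UMIs and 1 UMI. Its levels there, 0.241 and 0.437 CPM, were low and are only loosely set.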
